A study of Mus musculus with 26 samples.

Results

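The CCN genes encode a small family of secreted matricellular proteins, and the 6 mouse members are *Ccn1*, *Ccn2*, *Ccn3*, *Ccn4*, *Ccn5* and *Ccn6* (older symbols *Cyr61*, *Ctgf*, *Nov*, *Wisp1*, *Wisp2* and *Wisp3*). The family was chosen from these samples' own values: *Ccn3* was among the leading genes of the contrast of the diets at day 22, and the other 5 members were taken by gene family. The contrast of the diets at day 22 is therefore given as a description, with no test. All 6 of 6 members were measured; 5 of 6 passed the filter on low counts and are among the 17063 genes tested, out of 35975 genes with a transcript in the files, and *Ccn6* did not pass it.

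CCN proteins are built from a shared set of cysteine-rich modules and sit in the extracellular matrix, where they bind integrins, heparan sulphate proteoglycans, lipoprotein receptor-related proteins and growth factors instead of acting as structural fibres. They are known for roles in wound repair, fibrosis and inflammation, and in the gut they are made mainly by stromal cells and by epithelium under stress or repair. *Ccn1* and *Ccn2* are textbook immediate early genes and targets of the YAP and TAZ coactivators, *Ccn4* and *Ccn5* were first described downstream of Wnt signalling, and *Ccn5* differs from the other members in lacking the C-terminal cystine-knot module.

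The study asked how a diet with the LXR agonist GW3965, which activates liver X receptors, changes the colon in a model of colitis-associated tumours. RNA of 26 colon samples was sequenced as polyA RNA, in 8 groups made of 2 diets and 4 times. All mice were wild type C57BL/6J males of about 10 weeks at the start. Mice of the day 22, day 43 and day 70 groups were given azoxymethane (AOM, a carcinogen, 10 mg/kg) and then dextran sulphate sodium (DSS, a colitis-causing agent) in cycles, and were sampled that many days after AOM. Of these cycles 1 had been given by day 22, 2 by day 43 and 3 by day 70. At each of those days there were 3 mice on the standard diet and 3 on the GW3965 diet. The paper's figure legend counts mice per timepoint, whereas its reporting summary states that bulk RNA-seq samples were pools of biological replicates. Each library is treated here as 1 mouse. The day 0 groups, 4 mice per diet, were given neither AOM nor DSS and were sampled after 22 days (2 mice) or 43 days (2 mice) of diet; their values are listed below in that order. Total counts per sample ran from 18195345 to 41522204, with a median of 20424702.

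Several properties of the samples bear on every result. The samples of a diet at days 22 and 43 came from 1 cage and those at day 0 from 1 other cage. Diet and cage therefore cannot be told apart at these times, whereas each mouse at day 70 had its own cage. On each diet, days 22 and 43 also differ from day 0 in cage. Time and cage thus cannot be told apart in those contrasts or in the day 43 interaction. The day 70 mice also differed from the day 0 mice in cage, and the day 70 interaction takes in the day 0 diet difference, which carries cage. They had also been on their diet longer, 70 days against 22 or 43, and were older when sampled. In day 70 against day 0, AOM-DSS, cage, age and length of diet therefore cannot be told apart. For the AOM-DSS model, the paper took tissue for RNA from distal colon at sites matching tumour areas. It describes tumours almost only in control mice at its middle AOM-DSS time. At its last time it describes them on both diets, to different extents. Between the diets at days 43 and 70, diet and tumour content of the sample therefore cannot be told apart. One day 0 sample titled as GW3965 diet, replicate 43-2, has STD as its diet label. Its summed LXR target genes stood at 1869.6 CPM (counts scaled to library size), inside the range of the GW3965 day 0 samples (1683.5 to 1889.7) and above the standard diet day 0 samples (634 to 872), so it was kept with the GW3965 diet, whose cage label it also carries. Ribosomal protein genes took 5.33 to 6.51% of the counts of a day 0 sample and 6.06 to 10.7% at day 22. They took 10.0 to 18.6% at day 43, then 3.96 to 6.66% by day 70. This percentage entered the model as a covariate, and since its values at day 43 all lay above those at day 0, the change from day 0 to day 43 and the ribosomal percentage cannot be told apart. RNA integrity numbers were 10 in every day 0 sample and 2.6 to 9.3 at day 43, with the 2.6 in replicate 1 of the standard diet, the largest library.

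Levels of different members were compared in TPM, the authors' unit in which counts are divided by transcript length and scaled to a fixed total per sample. *Ccn2*, the connective tissue growth factor, had the highest median over the 26 samples, 20.5 TPM (13.1 to 161). *Ccn1*, an integrin ligand that promotes adhesion and migration, followed at 10.4 TPM (2.97 to 80.4). *Ccn3*, a member known for restraining proliferation and for opposing *Ccn2* in fibrosis models, had a median of 5.87 TPM (2.11 to 40.6). These 3 genes overlapped widely in level, although *Ccn2* exceeded *Ccn1* in 23 of 26 samples and *Ccn1* exceeded *Ccn3* in 20 of 26. *Ccn5* had a median of 4.03 TPM (0.252 to 15.9) and was below *Ccn3* in 17 of 26 samples. *Ccn4* had a median of 1.02 TPM (0.384 to 3.48) and was below *Ccn5* in 19 of 26. *Ccn6* lay at 0.0464 TPM (0 to 0.211), under *Ccn4* in 26 of 26 samples with no overlap of their ranges. The ranges of neighbours in this order, taken over all samples, overlapped down to *Ccn4*, and their differences within samples were not tested. This order of medians over all samples did not hold at each time. At day 0 the mean of *Ccn5* was 0.632 TPM on the standard diet and 0.816 TPM on GW3965, below *Ccn4* at 1.03 and 1.02. At day 43 *Ccn5* had means of 12.1 and 5.70 TPM on these diets, above *Ccn3* at 5.27 and 3.26.

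**Figure D1:**
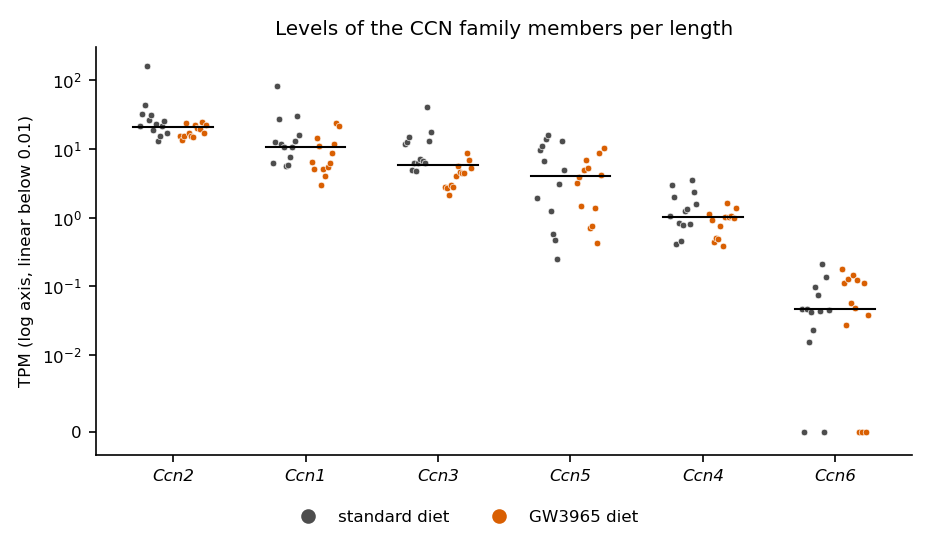
TPM (log axis) of each CCN member in every sample, with the median over the 26 samples as a black bar. *Ccn2* has the highest median (20.5 TPM) and *Ccn6* lies at 0.211 TPM or less in every sample.

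The members lie apart in the mouse genome (build GRCm38). *Ccn1* (ENSMUSG00000028195.4) is at chr3:145646976-145649981 on the minus strand, and *Ccn2* (ENSMUSG00000019997.11) at chr10:24595442-24598683 on the plus strand. *Ccn3* (ENSMUSG00000037362.8, chr15:54745702-54754039) and *Ccn4* (ENSMUSG00000005124.10, chr15:66891320-66923201) share chromosome 15 and the plus strand. *Ccn5* (ENSMUSG00000027656.7) is at chr2:163820861-163833146 on the plus strand, and *Ccn6* (ENSMUSG00000062074.7) at chr10:39150970-39163794 on the minus strand of the chromosome that holds *Ccn2*. *Ccn1*, *Ccn3* and *Ccn6* each had 1 transcript in the files, *Ccn2* had 3, *Ccn4* had 6 and *Ccn5* had 2. The first-listed *Ccn2* transcript took 94.5% of that gene's counts over all samples, and the first-listed *Ccn4* transcript 98.1%. The other *Ccn5* transcript, annotated as non-coding, took a median of 13.7% of the gene's TPM (0 to 73.9%) and 4.86% of its counts.

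*Ccn1* is described first, with *Ccn2*, as the pair of immediate early and YAP/TAZ-responsive members. Values are CPM, counts scaled to a fixed library total after TMM normalization. At day 0 *Ccn1* stood at 8.10, 9.35, 11 and 14.8 CPM on the standard diet and at 6.19, 7.01, 8.91 and 12 CPM on the GW3965 diet. At day 22 it was at 10.8, 23.7 and 134.3 CPM on the standard diet and at 11.5, 9.08 and 35.7 CPM on GW3965. One standard diet sample at day 22 thus carried the highest *Ccn1* value of the 26, and the remaining day 22 samples reached down into the day 0 range. At day 43 *Ccn1* measured 82.9, 34.3 and 36.4 CPM on the standard diet and 30.1, 10.5 and 10.4 CPM on GW3965. At day 70 it measured 18.2, 42.9 and 22.9 CPM on the standard diet and 16.1, 31.5 and 30.1 CPM on GW3965. In CPM the diets separated without overlap at day 43 only, and in TPM they overlapped then as well (10.5 TPM in the lowest standard diet sample, 10.9 TPM in the highest GW3965 sample). Every day 70 sample on either diet lay above every day 0 sample.

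The promoter of *Ccn1* is shown because motifs of the factors that the background names could be read from it. RefSeq's promoter table held 2 of the 6 members, *Ccn1* and *Ccn6*. The window covers 250 bases before to 50 bases after the start of *Ccn1* (GRCm38.p6, chr3:145649936-145650235, minus strand, written 5′ to 3′), and capitals mark the matches to 3 of the motifs searched.
Ccn1: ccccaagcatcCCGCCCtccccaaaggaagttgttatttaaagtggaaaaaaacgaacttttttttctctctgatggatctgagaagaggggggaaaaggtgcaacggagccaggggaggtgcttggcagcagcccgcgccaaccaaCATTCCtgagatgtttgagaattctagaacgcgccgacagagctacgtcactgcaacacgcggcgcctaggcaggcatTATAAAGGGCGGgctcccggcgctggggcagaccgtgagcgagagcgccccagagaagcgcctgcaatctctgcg
Both strands were searched for 6 motifs. GGAATG, the core of sites for TEAD factors, occurred once, on the opposite strand at -103 to -98 from the start, and 14.7% of the 32851 promoters of that length hold it. TATAAA, the usual core promoter box, lay at -25 to -20 and occurs in 13.6% of promoters. GGGCGG, the core of sites for Sp1, lay at -19 to -14, directly after the previous match and without overlap, and on the opposite strand at -239 to -234, and occurs in 35.7% of promoters. The cyclic AMP response element TGACGTCA (1.79% of promoters), the element TGANTCA that AP-1 factors bind (7.81%) and the CArG box of serum response factor (1.63%) had no match in the window, and the *Ccn6* window matched none of the 6 motifs. These matches describe the letters of the window and nothing measured in these samples.

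*Ccn2*, the member of highest median TPM over the 26 samples, moved over a wide range at day 43. At day 0 it stood at 33.6, 43.9, 23.3 and 26.3 CPM on the standard diet and at 27.7, 35.2, 33.0 and 31.2 CPM on GW3965. At day 22 it measured 45.6, 73.6 and 84.0 CPM on the standard diet against 28.7, 28.5 and 46.3 CPM on GW3965. The standard diet samples at day 22 lay above all day 0 samples, while of the GW3965 samples 1 lay just above the day 0 range and the others within it. In TPM the lowest *Ccn2* value of the standard diet at day 22 (21.5 TPM) lay within the day 0 range (up to 22.6 TPM). At day 43 *Ccn2* reached 606, 93.8 and 129.5 CPM on the standard diet and 78.9, 72.5 and 37.3 CPM on GW3965. At day 70 it was at 34.9, 44.9 and 29.9 CPM on the standard diet and 41.1, 27.0 and 36.6 CPM on GW3965. The day 70 samples thus lay within or just above the day 0 range. The value of 606 CPM belongs to the library with the RNA integrity number of 2.6, and the diets did not overlap at day 43 with or without it.

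*Ccn3*, the member through which the family was chosen, did not overlap between the diets at any time. At day 0 it stood at 13.5, 17, 14.5 and 13.1 CPM on the standard diet and at 12.6, 8.83, 9.27 and 9.25 CPM on GW3965. At day 22 it measured 29.9, 35.0 and 37.0 CPM on the standard diet and 7.22, 7.03 and 7.79 CPM on GW3965. The GW3965 samples at day 22 were the lowest *Ccn3* values of the 26, below every day 0 sample, and the standard diet samples were above every day 0 sample. At day 43 *Ccn3* was at 22.5, 26.9 and 24 CPM on the standard diet and at 12, 14.6 and 12 CPM on GW3965. At day 70 the standard diet samples reached 83.6, 28.4 and 36.9 CPM and the GW3965 samples 17.7, 13.2 and 10.8 CPM. At each of the 4 times, every standard diet sample was above every GW3965 sample, and in the AOM-DSS groups the standard diet samples also lay above the whole day 0 range in CPM. In TPM this did not hold at day 43, where *Ccn3* on the standard diet was at 4.90, 6.23 and 4.67 TPM against 6.21 to 7.17 TPM at day 0 of that diet. Group means on the standard diet were 14.5 ± 1.74 CPM (SD, n = 4) without AOM-DSS. At days 22, 43 and 70 they were 33.9 ± 3.66, 24.5 ± 2.23 and 49.6 ± 29.7 (n = 3 each). On GW3965 the means in the same order were 9.99 ± 1.77 CPM (n = 4), 7.35 ± 0.398, 12.9 ± 1.49 and 13.9 ± 3.49 (n = 3 each).

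Over the 26 samples the tested member of lowest median TPM was *Ccn4*, although at day 0 *Ccn5* was lower in mean TPM on both diets. *Ccn4*, first known as a Wnt-induced gene, ran from 1.62 to 14.3 CPM. At day 0 it stood at 2.50, 4.96, 4.94 and 3.07 CPM on the standard diet and at 1.62, 3.64, 5.25 and 3.58 CPM on GW3965. At day 22 it measured 4.51, 14.3 and 8.52 CPM on the standard diet and 4.44, 4.49 and 2.45 CPM on GW3965. The diets separated by a narrow margin at day 22, since the lowest standard diet value and the highest GW3965 value nearly met, and overlapped in TPM. At day 43 the values were 3.51, 6.21 and 4.34 CPM on the standard diet and 3.82, 4.73 and 3.48 CPM on GW3965. At day 70 they were 12, 8.80 and 6.21 CPM on the standard diet and 4.04, 3.54 and 5.30 CPM on GW3965. The diets overlapped at days 0 and 43 and did not overlap at day 70, where the standard diet samples lay above all day 0 samples in CPM (in TPM the lowest, 1.58, lay below the highest at day 0, 1.64) and the GW3965 samples within or just above them.

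*Ccn5*, the member without the C-terminal module, was low in the mice not given AOM-DSS. At day 0 it stood at 1.37, 0.755, 0.340 and 0.297 CPM on the standard diet and at 0.835, 0.736, 1.32 and 0.497 CPM on GW3965. At day 22 it measured 2.20, 14.8 and 13.8 CPM on the standard diet and 4.12, 5.32 and 2.99 CPM on GW3965. Every day 22 sample lay above every day 0 sample, on both diets. At day 43 *Ccn5* reached 15.7, 32.1 and 45.0 CPM on the standard diet and 10.7, 19.8 and 8.67 CPM on GW3965. At day 70 it was at 3.26, 14.5 and 5.54 CPM on the standard diet and 9.06, 3.98 and 11.4 CPM on GW3965. All 18 samples after AOM-DSS, from 2.20 to 45.0 CPM, lay above the 8 day 0 samples, the highest of which was 1.37 CPM, and the diets overlapped at every time.

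*Ccn6*, which did not pass the filter, had 0 to 4 estimated counts per sample. The counts were 2, 2, 1 and 4 at day 0 on the standard diet and 1, 2, 0 and 0 on GW3965. Later groups held 1, 0 and 1 (day 22), 1, 2 and 1 (day 43) and 0, 3 and 1 (day 70) on the standard diet. On GW3965 they held 4, 3 and 1, then 4, 2 and 4, then 2, 0 and 1 at the same times. No sample exceeded 4 counts. Per library total the GW3965 samples at day 43 (0.135 to 0.235 CPM) lay above the standard diet samples (0.0311 to 0.107 CPM), a matter of a few counts that was not tested. In the 5 samples at 0, a count of 0 allows up to 0.164 CPM (3 counts of the total), for counting error only.

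**Figure D2:**
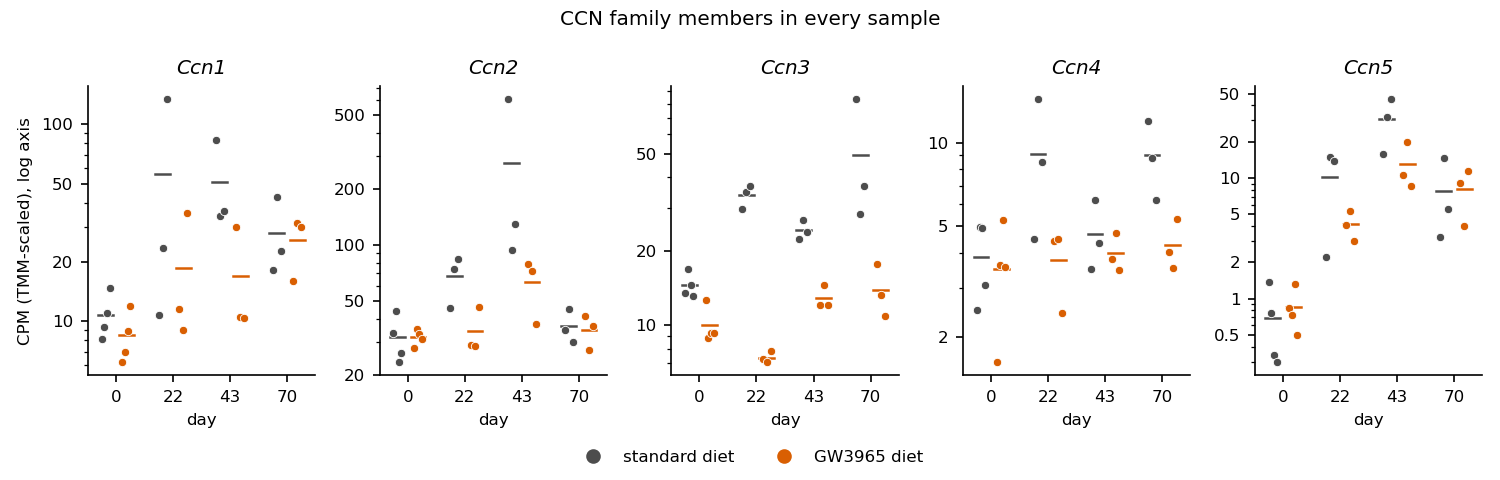
CPM of each of the 5 tested CCN members (log axis) by day, with points for samples, bars for group means and colour for diet. *Ccn3* is higher in every standard diet sample than in any GW3965 sample of the same day, and *Ccn5* lies at 1.37 CPM or less at day 0 and at 2.20 CPM or more later.

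The diet contrasts ask which members differed between GW3965 and the standard diet at a given time, as log2 fold changes from edgeR with the false discovery rate over all tested genes (adjusted P, threshold 0.05). *Ccn3* was 1 of 5 tested members called at day 70, where it fell by 1.86 on the log2 scale (SE 0.29, adjusted P = 0.00707), lower in 3 of 3 GW3965 samples than in any standard diet sample. It ranked 6 by P among all genes, and 0.0820% of all tested genes were called lower in that contrast. The spread in this and the other main tests was estimated over all 26 samples. These include the day 22 samples that chose *Ccn3*, so the test is not independent of that choice. In bulk samples, fewer cells of a type and less RNA per cell cannot be told apart, which holds for each difference given here. *Ccn4* also separated at day 70, with a log2 fold change of -1.04 (SE 0.44) that did not pass (adjusted P = 0.209). These 2 of 5 members were lower without overlap of the groups, as were 8.53% of all tested genes. *Ccn1*, *Ccn2* and *Ccn5* had log2 fold changes of 0.11, 0.12 and 0.33 at day 70 (adjusted P from 0.815 to 0.953).

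The *Ccn3* call at day 70 depends on 1 library. Without replicate 1 of the standard diet at day 70, the sample at 83.6 CPM, the log2 fold change was -1.18 with adjusted P = 0.0564, and no member was called. Fitting only the 6 samples of that day gave -2.51 with adjusted P = 0.900. No gene was called in that fit (edgeR, with 398 genes at unadjusted P under 0.05), which alone among the alternatives left out the day 22 samples. Over 14 alternatives the log2 fold change ran from -2.51 to -1.18 and the adjusted P from 6.17e-07 to 0.900, and *Ccn3* was called in 12 of them.

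At day 0, in mice given neither AOM nor DSS, 0 of 5 members were called (edgeR, with 1 at unadjusted P under 0.05, and 0 by DESeq2), beside 0.0293% of all tested genes. *Ccn3* had a log2 fold change of -0.53 (SE 0.24, adjusted P = 1) and was lower in 4 of 4 GW3965 samples, a pattern without overlap that 0.985% of all genes showed. The other 4 tested members overlapped between the diets, with log2 fold changes from -0.39 (*Ccn1*) to 0.24 (*Ccn5*).

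At day 43, 0 of 5 members were called as well (edgeR; 2 at unadjusted P under 0.05, and 0 by DESeq2), beside 0.0293% of all tested genes. *Ccn1*, *Ccn2* and *Ccn3* were each lower in all 3 GW3965 samples without overlap in CPM, 3 of 5 members beside 4.20% of all genes; *Ccn1* overlapped in TPM. Their log2 fold changes were -1.12 (SE 0.83), -1.77 (SE 0.54) and -0.98 (SE 0.30), with adjusted P of 0.723, 0.450 and 0.450. *Ccn5* had -0.84 (SE 0.68) and *Ccn4* -0.16 (SE 0.46), both with overlap. *Ccn1* depended on single libraries: without replicate 2 of GW3965 at day 43 it was at -0.05 (adjusted P = 1), and without replicate 1 of that group at -1.88 (adjusted P = 0.706). *Ccn2* did so too: without replicate 2 of the standard diet at day 43 it was called (-2.31, adjusted P = 0.0391), and without replicate 1, the library of low RNA integrity, it was at -0.49 (adjusted P = 0.728). Over all 12 alternatives its adjusted P ran from 0.0391 to 1.00.

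The contrast of the diets at day 22, which chose the family, is described without a test. *Ccn3* had a log2 fold change of -2.19 (SE 0.29) and *Ccn4* of -1.27 (SE 0.43). These 2 of 5 members did not overlap between the diets, beside 11.5% of all tested genes, from which nothing is read. *Ccn1* (-1.86, SE 0.74), *Ccn2* (-1.11, SE 0.46) and *Ccn5* (-1.32, SE 0.63) had overlapping groups.

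**Figure D3:**
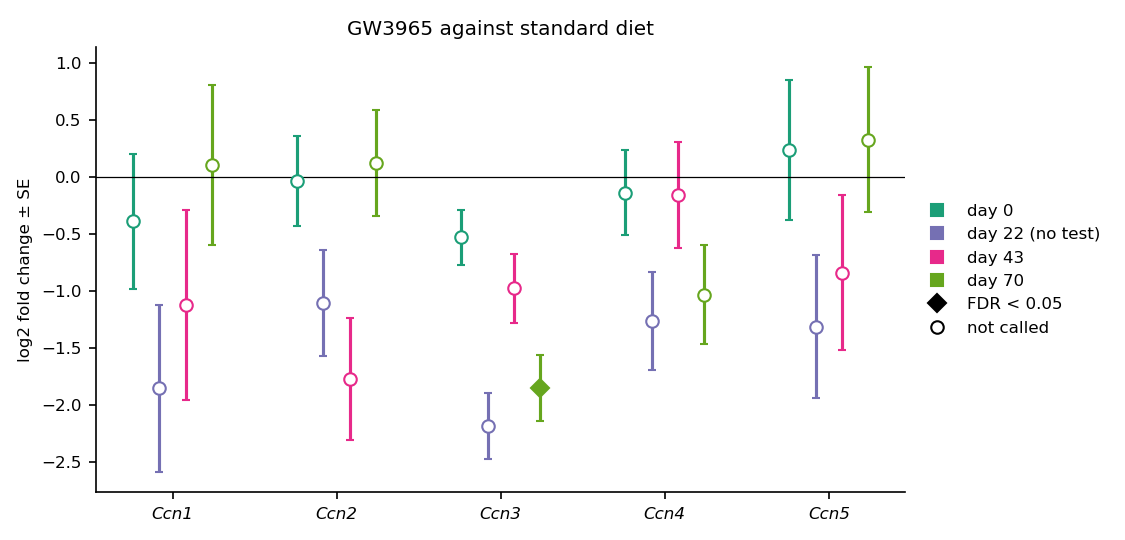
Log2 fold change of GW3965 against standard diet for the 5 tested members at each day, with standard errors as bars, filled diamonds for adjusted P under 0.05 and open circles for values that were not called or not tested. *Ccn3* lies below 0 at every day, from -0.53 at day 0 to -2.19 at day 22, and is called at day 70.

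Whether the diet difference at a later time departed from that at day 0 was tested as an interaction. For day 70, 0 of 5 members were called (edgeR; 1 at unadjusted P under 0.05), beside 0.00% of all tested genes, whereas DESeq2 called 1, *Ccn3*, beside 309 of all tested genes (1.81%). The *Ccn3* interaction was -1.32 (log2, SE 0.37, adjusted P = 0.190); DESeq2 gave -1.34 with adjusted P = 0.0496, and over 24 alternatives the adjusted P ran from 0.0496 to 0.564. Without replicate 1 of the standard diet at day 70 it was -0.65 (adjusted P = 0.531). The diet difference of *Ccn3* at day 70 is therefore not shown by edgeR to differ from the one at day 0. For day 43, 0 of 5 members were called (edgeR; 1 at unadjusted P under 0.05, and 0 by DESeq2), again beside 0.00%, and the largest value was that of *Ccn2*, -1.73 (SE 0.67, adjusted P = 0.994), which was -0.46 (adjusted P = 0.994) without replicate 1 of the standard diet at day 43.

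The contrasts over time ask which members changed after AOM-DSS, averaged over the diets with equal weight; the 3 of them share the day 0 samples. *Ccn5* had the largest change of the members at day 22, where it rose by 2.78 (log2, SE 0.47, adjusted P = 0.00032), a 6.87-fold increase with 6 of 6 samples above all 8 day 0 samples. It was 1 of 5 members called, beside 13.3% of all tested genes called higher, and 1 of 5 without overlap, beside 9.46%. *Ccn1* had 1.46 (SE 0.52) and missed the threshold (adjusted P = 0.0531). That value rested on the standard diet sample at 134.3 CPM, since without it the log2 fold change was 0.43 (adjusted P = 0.535). *Ccn1* was called without replicate 1 (1.77, adjusted P = 0.0125) or replicate 2 (1.56, adjusted P = 0.0389) of that group, and its adjusted P over 24 alternatives ran from 0.00507 to 0.535. *Ccn4* had 0.62 (SE 0.31, adjusted P = 0.166), *Ccn3* 0.43 (SE 0.20, adjusted P = 0.144) and *Ccn2* 0.34 (SE 0.34, adjusted P = 0.513).

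The average over the diets hides opposite values of *Ccn3* at day 22. Against day 0 of the same diet, its log2 fold change was 1.26 (SE 0.27) on the standard diet and -0.40 (SE 0.28) on GW3965, each without overlap with its day 0 samples. For *Ccn5* the same values were 3.56 (SE 0.66) and 2.00 (SE 0.63), positive on both diets. These values within a diet are descriptions, and those of *Ccn3* use the day 22 samples that chose it. The share of all tested genes without such overlap within a diet was not counted, and the difference between the diets was not tested. Nothing is read from the opposite signs.

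At day 43 against day 0, 0 of 5 members were called (edgeR; 1 at unadjusted P under 0.05, and 0 by DESeq2), beside 0.598% of all tested genes. *Ccn5* had the largest log2 fold change, 3.18 (SE 0.99, adjusted P = 0.153), and was the 1 of 5 members whose 6 samples lay above all day 0 samples, beside 18.8% of all genes. *Ccn2* had 0.86 (SE 0.79, adjusted P = 0.808), *Ccn3* 0.75 (SE 0.45, adjusted P = 0.596) and *Ccn1* 0.40 (SE 1.23, adjusted P = 0.966), the last at -0.77 without replicate 2 of GW3965 at day 43. Without the ribosomal covariate 4 of 5 members were called: *Ccn5* (4.70, adjusted P = 5.81e-08), *Ccn2* (2.05, adjusted P = 7.18e-06), *Ccn1* (1.62, adjusted P = 0.00329) and *Ccn3* (0.56, adjusted P = 0.00994). Over 22 alternatives the highest adjusted P of these members were 0.619, 1, 1 and 0.844. The same change of model took the count of all genes called from 102 to 11018. In TPM *Ccn3* turned direction at day 43: all 3 GW3965 samples (2.95, 2.81 and 4.0 TPM) lay below the 4 of day 0 on that diet (4.43 to 5.53 TPM), and the mean on the standard diet was 5.27 TPM against 6.58 at day 0. *Ccn4* was at -0.01 (SE 0.70).

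At day 70 against day 0, 4 of 5 members rose, beside 24.8% of all tested genes called higher. *Ccn5* rose by 3.44 (log2, SE 0.45, adjusted P = 7.69e-06), a 10.8-fold increase, in 6 of 6 samples. *Ccn1* rose by 1.57 (SE 0.45, adjusted P = 0.00854), also in 6 of 6 samples. *Ccn1* and *Ccn5* were the 2 of 5 members without overlap, beside 7.91% of all genes. *Ccn3* rose by 1.11 (SE 0.19, adjusted P = 0.000107), and 4 of 6 samples, the 3 on the standard diet and 1 on GW3965, lay above all day 0 samples; the log2 fold change within a diet was 1.77 on the standard diet and 0.44 on GW3965. *Ccn4* rose by 0.77 (SE 0.29, adjusted P = 0.0351), with 4 of 6 samples above all day 0 samples and log2 fold changes of 1.22 on the standard diet and 0.33 on GW3965. *Ccn2* had 0.26 (SE 0.30, adjusted P = 0.521).

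The day 70 calls differed in how far they depended on the processing. *Ccn5* and *Ccn3* were called in all 24 alternatives. *Ccn1* lost its call with the day 0 samples of 43 days of diet only (1.30, adjusted P = 0.131, the highest of its range from 0.00044). *Ccn4* kept its sign in all 24 alternatives and its call in 12, with adjusted P from 0.0198 to 0.231. Its call ended on leaving out any 1 of 8 libraries: day 0 standard diet replicates 22-1 (0.69, adjusted P = 0.0719) and 43-2 (0.72, 0.0658), day 0 GW3965 replicates 22-1 (0.65, 0.0652), 22-2 (0.78, 0.0521) and 43-2 (0.76, 0.0546), and day 70 standard diet replicates 1 (0.63, 0.0985) and 2 (0.78, 0.0596) and GW3965 replicate 3 (0.67, 0.101).

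**Figure D4:**
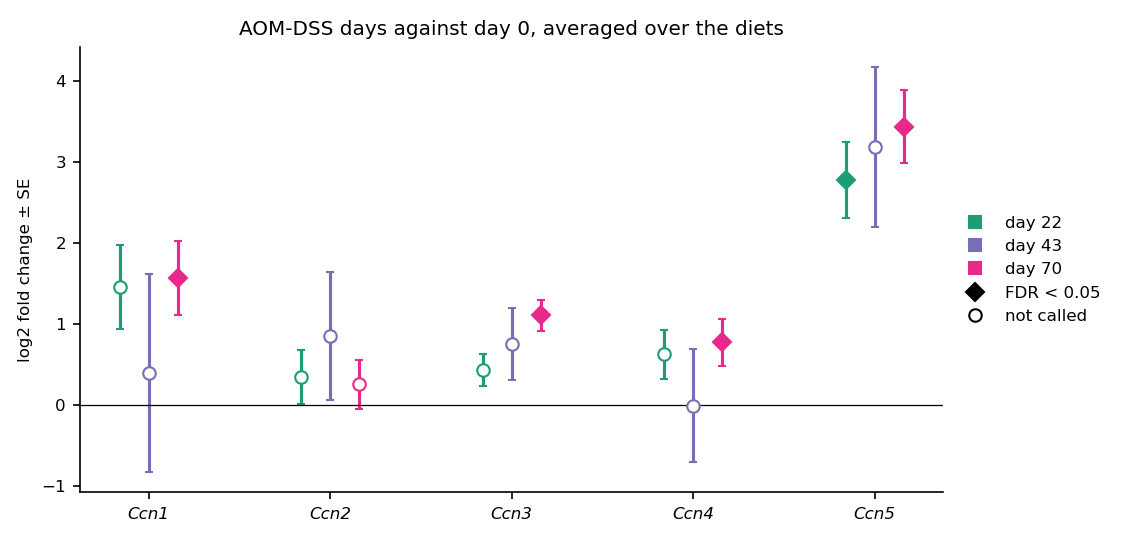
Log2 fold change of each AOM-DSS day against day 0 for the 5 tested members, averaged over the diets, with standard errors as bars, filled diamonds for adjusted P under 0.05 and open circles for values that were not called. *Ccn5* is the highest at each day (2.78, 3.18 and 3.44), and the standard errors are widest at day 43.

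Cell type markers moved in the same groups, and their part in the members' results was not tested. For the counts of this and the following lists, the shares of all tested genes called against day 0 were 24.8% higher and 18.5% lower at day 70 and 13.3% higher and 6.60% lower at day 22. Between the diets at day 70 they were 1.75% higher and 0.0820% lower. Calls in that contrast depended on single libraries. The 312 genes called became 6 without replicate 1 of the standard diet at day 70 and 7 without its replicate 3. They became 1464 without replicate 3 of GW3965, 8 with the replicate block and 0 with only the samples compared. Which listed genes stayed called without a single library was not examined. Fibroblast markers, of cells that make several CCN proteins, summed to 3972 to 4944 CPM at day 43 on the standard diet and 1639 to 2855 CPM on GW3965, without overlap, most abundantly *Col3a1*; 0 of 7 were called between the diets then (edgeR; 4 at unadjusted P under 0.05, and 0 by DESeq2). At day 22 they summed to 1546, 4188 and 3201 CPM on the standard diet and 1584, 1314 and 1180 CPM on GW3965. At day 70 the fibroblast sums were 2459, 1912 and 1299 CPM on the standard diet and 3330, 1916 and 1718 CPM on GW3965, overlapping between the diets that *Ccn3* separated. Against day 0, 3 of 7 fibroblast markers were called higher at day 70 and 1 of 7 at day 22.

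Smooth muscle and enteric nervous system markers fell at day 70. All 6 of 6 smooth muscle markers were called lower than at day 0, with summed levels of 1580, 3509 and 1953 CPM on the standard diet and 7081, 2782 and 4178 CPM on GW3965, against 5448 to 23417 CPM at day 0 (most abundantly *Tagln*). Of the enteric glia markers, *S100b* (-2.77) and *Sox10* (-2.44) were called lower than at day 0. Between the diets at day 70, 2 of 4 glia markers and 1 of 7 neuron markers were called higher on GW3965, in the groups where *Ccn3* was lower. Enteric neuron markers were lower in 5 of 7 at day 70 and in 3 of 7 at day 22.

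Markers of tissues other than colonic mucosa were high in some samples, and their part in the members' values was not tested either. Stratified squamous epithelium markers summed to 2.34 to 3.91 CPM at day 0, with 1 to 3 of 7 genes at 0, and *Krt13* was the most abundant. At day 70 they summed to 2538, 3672 and 3798 CPM on the standard diet and to 15222, 4.79 and 10284 CPM on GW3965. At day 43 the sums were 399, 1338 and 573 CPM on the standard diet and 1725, 122 and 3124 CPM on GW3965. Of these markers 7 of 7 were called higher at day 70, 5 of 7 at day 43 and 1 of 7 at day 22. Replicate 2 of the GW3965 diet at day 70, with 4.79 CPM of these markers, had *Ccn3* at 13.2 CPM, between the other GW3965 samples of that day. Skeletal muscle markers (most abundantly *Acta1*) summed to 9.20, 769 and 143 CPM at day 70 on the standard diet and to 20820, 11.8 and 23.9 CPM on GW3965, against 22.3 to 86.2 CPM at day 0, and 7 of 7 were called higher.

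Leukocyte, endothelial and epithelial markers complete the comparison. Leukocyte markers were called higher in 6 of 6 at day 22 against day 0, the time at which *Ccn5* first rose, with sums of 307 to 526 CPM against 68.2 to 205 CPM (most abundantly *Ptprc*). At day 70 they were higher on GW3965 in 4 of 6, with 122, 406 and 105 CPM against 39.0, 74.5 and 41.5 CPM, and 1 of 6 was called lower than at day 0. Endothelial markers were called higher in 2 of 5 and lower in 1 of 5 at day 70. Epithelial markers, led by *Krt8*, were measured in all 26 samples at 2708 CPM or more, and 1 of 7 was called higher at day 70. Their highest sum, 18198 CPM, was in replicate 1 of the standard diet at day 70, the library on which the *Ccn3* call at day 70 depends, against 12466 CPM or less in the other 25 samples and 9507 CPM or less in the other 5 of that day.

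**Figure D5:**
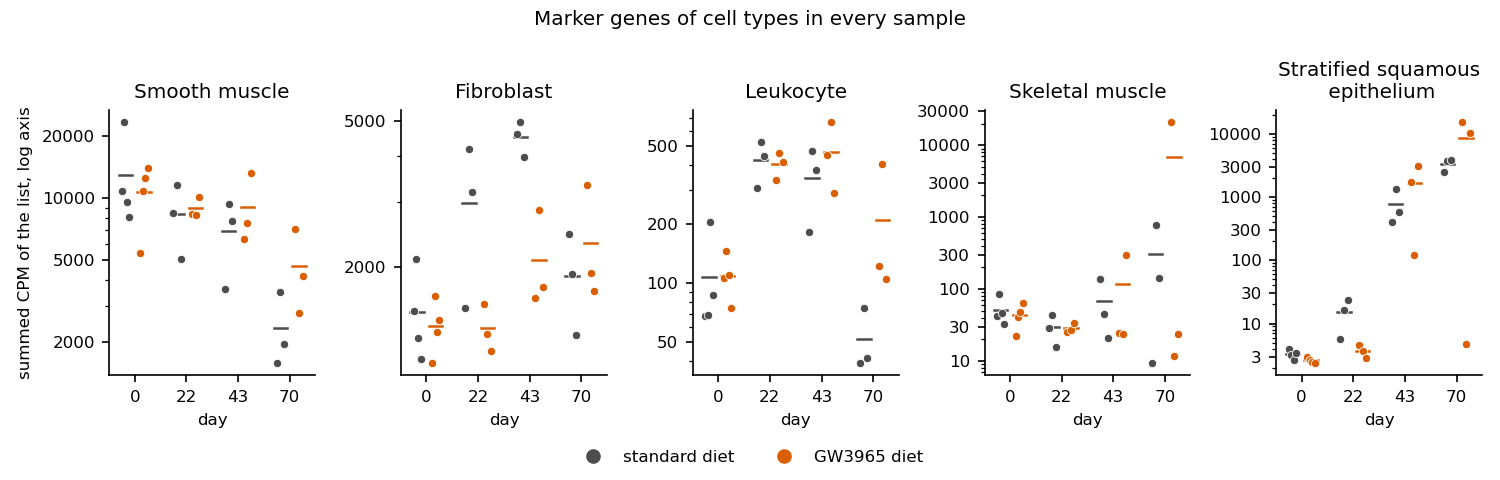
Summed CPM (log axis) of cell type marker lists by day, with points for samples, bars for group means and colour for diet. Squamous markers lie at 2.34 to 3.91 CPM at day 0 and at up to 15222 CPM at day 70, with 1 GW3965 sample at 4.79 CPM.

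The receptors and binding partners of CCN proteins, integrins, syndecan and LRP proteins among them, were compared as a list of 14 genes. At day 70 against day 0, 5 of 14 were called higher, among them *Itgam* (1.68), *Itgav* (1.21, the alpha chain of the vitronectin receptor) and *Itgb2* (1.30), and 2 of 14 lower, *Lrp6* (-0.58) and *Itga5* (-0.85). The median log2 fold change of the list was 0.07, beside 0.07 over all tested genes. At day 22, *Itgb2* (1.95) and *Itgam* (1.66), the chains of a leukocyte integrin, were higher and *Lrp6* (-0.52) lower, with a list median of -0.22 beside 0.01. Between the diets at day 70, *Lrp1* was higher on GW3965 (1.37, adjusted P = 0.0292), 1 of 14, and at days 0 and 43 0 of 14 were called (edgeR; 0 and 4 at unadjusted P under 0.05, and 0 by DESeq2 at both).

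Other matricellular genes, 14 in the list, moved in both directions. At day 70, 7 of 14 were called higher than at day 0, including *Spp1* (osteopontin, 6.31), *Thbs2* (2.04) and *Thbs1* (1.42), and 3 of 14 lower, *Postn* (-1.22), *Sparcl1* (-1.43) and *Thbs4* (-1.37), with a median of 0.62 beside 0.07. At day 22, *Spp1* (3.03), *Tgfbi* (1.46) and *Sparc* (0.91) were higher and *Thbs4* (-1.35) and *Sparcl1* (-1.0) lower, with a median of 0.04 beside 0.01. Between the diets at day 70, where *Ccn3* was called, 0 of 14 were (edgeR; 4 at unadjusted P under 0.05), while DESeq2 called 1 higher and 1 lower.

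Genes of the pathways that the background links to CCN members were described in the same way. Of 13 Wnt target genes, 12 were called higher at day 70 than at day 0, among them *Notum* (8.85), *Sp5* (7.87) and *Wif1* (6.09), with a median of 2.03 beside 0.07 over all genes. At day 22, 3 of 13 were higher, *Sp5* (2.96), *Tcf7* (1.38) and *Lef1* (1.23), with a median of 0.05 beside 0.01. Between the diets, 0 of 13 were called at day 43 (edgeR; 9 at unadjusted P under 0.05, and 3 lower by DESeq2) and at day 70 (edgeR; 3 at unadjusted P under 0.05, and 0 by DESeq2), with medians of -1.98 and -0.95 beside -0.03 and 0.02. Tumour content of the samples was not measured here, and its part in these diet medians was not tested. The day 43 standard diet library with low RNA integrity, which held the highest *Ccn2*, had a Wnt target sum of 1550.1 CPM. The other 5 samples of that day had 69.1 to 146 CPM.

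YAP/TAZ-TEAD target genes and immediate early genes are the lists closest to *Ccn1* and *Ccn2* by role. Of 20 YAP/TAZ-TEAD targets, 6 were called higher at day 70, including *Fjx1* (1.17), *Myof* (1.06) and *F3* (0.84), and 4 lower, including *Foxf2* (-1.19), *Axl* (-0.85) and *Lats2* (-0.62), near the shares of all tested genes (24.8% and 18.5%), with a median of -0.10 beside 0.07. At day 22, *Nuak2* (0.59) was higher and *Crim1* (-1.04) lower. Of 14 immediate early genes, 5 were called higher at day 70, including *Ier3* (2.64), *Egr2* (1.88) and *Jun* (1.09), with a median of 0.75, and 4 at day 22, including *Egr2* (1.89), *Egr3* (1.35) and *Ier3* (1.09), with a median of 0.77. Between the diets at day 70, 0 genes of either list were called (edgeR; 5 and 2 at unadjusted P under 0.05), and DESeq2 called 2 YAP/TAZ-TEAD targets higher, 1 lower and 0 immediate early genes. The day 22 standard diet library with the highest *Ccn1* also had the highest immediate early gene sum, 1926 CPM, against 1209 CPM or less in the other 25.

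The TGF-beta list of 12 genes, which covers the pathway best known for inducing *Ccn2*, had 5 genes called higher at day 70, including *Ltbp2* (3.09) and *Smad3* (0.74), and 1 lower, *Tgfb3* (-1.34), with a median of 0.10. At day 22, *Tgfb1* (1.25) was the 1 gene of that list called. The 9 LXR target genes, which report on the agonist itself, were called higher on GW3965 in 5 of 9 at day 0, 5 of 9 at day 43 and 7 of 9 at day 70, with medians of 2.23, 1.79 and 1.74. *Abcg1*, a sterol transporter, was higher by 2.90, 2.65 and 2.51 at those times, in the contrasts in which *Ccn3* had -0.53, -0.98 and -1.86.

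Genes whose levels ran most like each member were named by the correlation of log2 CPM over the 26 samples (Pearson r, n = 26), as a description of samples that share groups. *Ccn1* ran with *Apold1* (0.83), *Ptgs2* (0.82, an inducible prostaglandin synthase), *Nr4a2* (0.81), *Ereg* (0.80, a ligand of the EGF receptor) and *Nfil3* (0.80), and after removal of group means these were 0.76, 0.80, 0.62, 0.64 and 0.68. *Ccn2* ran with *Ap1s2* (0.92), *Bmi1* (0.92), *4833420G17Rik* (0.91), *9530068E07Rik* (0.91) and *Tent2* (0.91), still 0.79 to 0.88 within groups. Among the 5 genes most like *Ccn3* were *Paqr8* (0.77), *Tnc* (0.76, tenascin C), *Cnppd1* (0.73) and *Tbx4* (0.72), and within groups these were 0.36, 0.17, 0.26 and 0.23. As all these genes were chosen by r over the 26 samples, nothing is read from a lower r within groups.

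*Ccn4* ran with *Adamts7* (0.78), *3110053B16Rik* (0.74), *Loxl2* (0.73), *Nt5c2* (0.73) and *Pheta2* (0.73), with 0.57 to 0.77 within groups. *Ccn5* had the closest companions, *Timp1* (0.94, an inhibitor of matrix metalloproteinases), *Il1r2* (0.94), *Plekhs1* (0.94), *Trem1* (0.93) and *Stx11* (0.93), with 0.55 to 0.75 within groups. Spearman's rho for these 24 genes ran from 0.60 (*Pheta2* with *Ccn4*) to 0.94 (*Timp1* with *Ccn5*). Among the members themselves, *Ccn3* and *Ccn4* had r = 0.68 (0.15 within groups) and *Ccn1* and *Ccn2* had r = 0.64 (0.50 within groups).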

How the data were processed

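RNA of 26 colon samples was quantified by the authors with Kallisto against mouse transcripts (version and Ensembl release not given in the sources used here). The values deposited by the authors are estimated counts per transcript and, in a separate column deposited by the authors, TPM. Transcripts were matched without their version to a GENCODE annotation of GRCm38 (116728 of 119414, 97.8%), estimated counts were summed per gene and rounded to whole numbers, and unmatched transcripts held 0.615 to 0.999% of counts. Log2 values were computed here from the deposited counts, as log2 CPM with a prior count of 2 after TMM scaling. Low counts were filtered with filterByExpr, given the 8 groups, which left 17063 genes. All 26 samples entered 1 quasi-likelihood fit (edgeR 4.0.16 with limma 3.58.1, R 4.3.3) with the 8 groups and the centred percentage of counts on 88 ribosomal protein genes, 17 residual degrees of freedom, and adjusted P over all tested genes (Benjamini-Hochberg, threshold 0.05). Tables were made with Python 3.11.15, pandas 2.3.3 and numpy 2.4.6, and figures with matplotlib 3.10.9. The steps were tested on simulated counts.

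The members and the 16 gene lists (7 pathways, 9 cell types) were chosen with earlier results of these data known. Of each list, the named genes are at most the 3 of smallest P in each direction per contrast among those called, and for each tested member the 5 genes of highest Pearson correlation. Alternatives were no covariate, RLE scaling, no filter on low counts, only the samples compared, a replicate block, day 0 samples of 22 or of 43 days of diet only, DESeq2 1.42.0, and leaving out each sample; for levels, counts per length in place of TPM. A fit without the day 43 samples and one without the day 43 library of low RNA integrity were chosen after seeing the data. The diets at day 22 and days within a diet were not tested.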

Additional observations from a re-analysis of the deposited data

Results flagged for a closer look

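*Ccn3* in day 0 GW3965 replicate 22-1 stood at 12.6 CPM, far from the other 3 samples of its group (8.83, 9.27 and 9.25 CPM); 12 groups were examined in this way, of which chance singles out about 1 in 20. Every *Ccn3* value at day 22 lay above the day 0 values of its diet on the standard diet (log2 fold change 1.26) and below them on the GW3965 diet (-0.40), opposite directions whose difference was not tested, since the contrast of the diets at day 22 chose the family. The share of all tested genes with such a pattern was not counted, and nothing is read from it.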

How the results depend on the processing

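Of 160 counts of members called under an alternative, 149 were within 1.5 times the reported count. Of 800 log2 fold changes, 717 kept their sign and their side of the threshold, and 57, from 13 results of which 0 were called, turned sign. Called log2 fold changes had 134 alternative values, of which 119 were still called and 0 turned sign. The cause of each change below was not tested. At day 22 against day 0, 2 members (*Ccn1* and *Ccn5*) were called without the covariate, by DESeq2 and without day 43 standard diet replicate 1 (chosen after seeing the data), and 1 to 2 on leaving out each sample. At day 43 against day 0, 4 were called without the covariate. At day 70 against day 0, 2 were called with day 0 samples of 43 days of diet only, and 3 to 4 on leaving out each sample. Between the diets at day 43, leaving out each sample gave 0 to 1, and at day 70 also 0 to 1, with 0 from only the samples compared. For the interaction at day 70, DESeq2 called 1. The median level of each member kept its order with counts per kilobase in place of TPM (18.1, 9.11, 5.41, 3.73, 0.926 and 0.0459 on that scale, from *Ccn2*, *Ccn1*, *Ccn3*, *Ccn5*, *Ccn4* to *Ccn6*).

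Log2 fold changes that turned sign, none of them called, were as follows. With day 0 samples of 22 days of diet only, *Ccn5* between the diets at day 0 was -0.45, *Ccn4* in the interaction at day 43 was 0.29 and *Ccn4* at day 43 against day 0 was 0.36. With those of 43 days only, *Ccn5* and *Ccn2* in the interaction at day 70 were -1.06 and -0.17, and *Ccn4* and *Ccn2* between the diets at day 0 were 0.14 and 0.30. Without the covariate, *Ccn4* at day 43 was 0.23, *Ccn1* and *Ccn2* between the diets at day 70 were -0.11 and -0.066, *Ccn2* and *Ccn5* in the interaction at day 70 were -0.067 and -0.24, and *Ccn2* between the diets at day 0 was 0.00044. With only the samples compared, *Ccn2* was -0.0033 at day 70 and 0.014 at day 0 between the diets and -0.034 in the interaction at day 70. With the replicate block, *Ccn4* at day 43 was 0.11 and *Ccn1* between the diets at day 70 was -0.094. On leaving out each sample, *Ccn1* ran from -0.77 to 0.76 at day 43, from -0.10 to 0.49 between the diets at day 70 and from -1.49 to 0.40 in the interaction at day 43. *Ccn2* ran from -0.17 to 0.15 and from -0.049 to 0.26 between the diets at days 0 and 70, and from -0.03 to 0.31 in the interaction at day 70. *Ccn4* ran from -0.51 to 0.18 at day 43, from -0.39 to 0.10 and from -0.39 to 0.28 between the diets at days 0 and 43, and from -0.27 to 0.43 in the interaction at day 43. *Ccn5* ran from -0.023 to 0.84 and from -0.031 to 1.07 between the diets at days 0 and 70, and from -0.50 to 0.82 in the interaction at day 70.

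Sample numbers do not pair the samples: over 13 pairs of equal number the mean correlation of deviations was -0.066 (-0.370 to 0.201). The replicate block changed no count of members called; *Ccn3* between the diets at day 70 was then -1.70 (adjusted P = 0.0424, over all 14 alternatives 6.17e-07 to 0.900). Depth limits *Ccn6*, whose counts of 0 to 4 allow no comparison.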
